A study of Mus musculus with 8 samples.

Results

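Genes of mitosis and the spindle were followed in 4T1 mouse breast tumors as a set of 35 chosen by their roles: G2/M cyclins and kinases, the spindle checkpoint, kinetochore proteins, spindle motors and cytokinesis factors. Each was found by its symbol in the count table, which held 54532 genes, and 35 of 35 were present once. 4T1-FLuc is a luciferase-tagged line of triple-negative breast cancer grown under the skin of female BALB/cJ mice, which have an intact immune system and were 6 weeks old at injection. The mAb-DXd/IMQ group (tumors 1 to 4, n = 4) received an antibody against CD276 that carries both the topoisomerase I inhibitor DXd and the TLR7/8 agonist imidazoquinoline, in 5 intravenous courses of 16 mg/kg, 4 days apart. The saline group (tumors 1 to 4, n = 4) received vehicle, which the titles call saline and the treatment field calls PBS. Tumors were taken at the endpoint, poly-A RNA was sequenced in bulk, and reads counted per gene ranged from 34591912 to 69582375 per tumor.

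Cells that enter mitosis switch on a program of transcription in G2 and M. Cyclin B and CDK1 start mitosis, Aurora and Polo kinases build the spindle, the checkpoint proteins hold back the anaphase-promoting complex until kinetochores are attached, and central spindle proteins then guide cytokinesis. Because these RNAs peak in dividing cells and fall in resting ones, their levels are widely used as a readout of proliferation in tumors, with Mki67 as the best known marker.

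Promoters of many such genes carry a cell cycle genes homology region, known as a CHR, and CCAAT boxes, through which MuvB complexes and NF-Y act. The windows before 5 genes are shown because, of the members that hold both motifs, these had the highest log2 fold changes between the groups. Sequences are from RefSeq on GRCm38.p6, 5′ to 3′ on the strand of the gene, from 250 bases before its start, and capitals mark TTTGAA and CCAAT on either strand.
Ccnb2 (chr9:70421558-70421804, minus strand): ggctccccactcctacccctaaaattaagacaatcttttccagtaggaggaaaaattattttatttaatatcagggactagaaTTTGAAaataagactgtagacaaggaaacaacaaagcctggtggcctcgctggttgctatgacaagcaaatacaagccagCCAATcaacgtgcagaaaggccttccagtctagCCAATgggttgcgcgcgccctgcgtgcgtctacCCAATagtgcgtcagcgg
Ube2c (chr2:164769679-164769925, plus strand): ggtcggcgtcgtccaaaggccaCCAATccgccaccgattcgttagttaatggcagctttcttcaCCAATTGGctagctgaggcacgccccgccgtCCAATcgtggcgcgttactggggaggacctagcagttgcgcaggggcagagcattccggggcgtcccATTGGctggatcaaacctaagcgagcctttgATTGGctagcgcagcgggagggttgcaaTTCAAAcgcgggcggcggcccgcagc
Cdk1 (chr10:69352916-69353162, minus strand): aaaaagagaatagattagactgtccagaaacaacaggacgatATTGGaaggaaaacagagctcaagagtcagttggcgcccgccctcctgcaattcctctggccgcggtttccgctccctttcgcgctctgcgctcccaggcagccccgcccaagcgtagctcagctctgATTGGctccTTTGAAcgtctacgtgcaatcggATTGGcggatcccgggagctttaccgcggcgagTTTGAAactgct
Cdc20 (chr4:118437347-118437593, minus strand): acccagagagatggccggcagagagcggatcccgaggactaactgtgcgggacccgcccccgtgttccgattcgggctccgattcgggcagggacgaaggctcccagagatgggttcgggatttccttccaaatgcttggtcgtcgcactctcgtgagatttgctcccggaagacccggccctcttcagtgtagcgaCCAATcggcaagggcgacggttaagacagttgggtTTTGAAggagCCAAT
Mki67 (chr7:135716383-135716629, minus strand): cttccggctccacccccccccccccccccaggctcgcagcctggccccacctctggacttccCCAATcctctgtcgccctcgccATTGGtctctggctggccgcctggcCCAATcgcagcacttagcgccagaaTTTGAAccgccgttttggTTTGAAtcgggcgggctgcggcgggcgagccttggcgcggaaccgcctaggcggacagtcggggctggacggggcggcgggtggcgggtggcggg
The motif CCAAT and its reverse complement stand next to each other with a shared stretch in Ube2c. In the annotation of the count table, the last 28 printed bases of Ube2c, 23 of Cdk1 and 6 of Cdc20 lie inside the gene, because the start sites differ between the annotations.

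A promoter window was found for 30 of the 35 genes. TTTGAA was present in the windows of 10 of these 30 genes (33.3%, exact binomial 95% interval 17.3% to 52.8%), against 18.3% of 27025 genes with a window, and CCAAT in those of 22 (73.3%, interval 54.1% to 87.7%), against 37.5%. Both motifs occurred in 9 of 30 (30%, interval 14.7% to 49.4%) and in 6.5% of all genes. Those 9 genes, Mki67, Ccnb2, Cdk1, Cdc20, Ube2c, Espl1, Kif11, Prc1 and Ect2, had log2 fold changes from 0.036 to 0.63 with a median of 0.22. For the other 21 the range was 0.16 to 0.63 and the median 0.39, and the difference between these groups of genes was not tested. By the annotation of the count table the windows of Kif2c (a gene with TTTGAA), Cdca8, Kif4 and Pttg1 lie wholly inside the gene, 106 bases of that of Cenpa and 81 of that of Ccnb1 do so, and 5 other windows beyond the printed ones overlap it by 3 to 24 bases, so not every window is upstream. A match describes letters in a window and says nothing of binding. The members were chosen by role and are not a random draw of genes. The intervals are therefore descriptive, and the differences from all genes were not tested.

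No mitosis gene passed the test, and all 35 had a log2 fold change above 0, that is a higher fitted level after mAb-DXd/IMQ. Counts were scaled with TMM factors and compared by edgeR's quasi-likelihood test with Benjamini-Hochberg adjustment over 18511 genes that passed a filter on low counts. A gene passed when its adjusted p was under 0.05 and its log2 fold change beyond 0.58 either way. Of all tested genes 101 (0.546%) were higher and 96 (0.519%) were lower by this rule, while 0 of 35 mitosis genes were higher and 0 were lower. The higher side held 51.3% of these genes, and 66.5% with upper-quartile factors in place of TMM. Both counts were far smaller without saline tumor 3 (9 higher, 1 lower), saline tumor 4 (9 and 2) or mAb-DXd/IMQ tumor 4 (10 and 2), and also moved without saline tumor 2 (49 and 62), mAb-DXd/IMQ tumor 2 (38 and 38) or mAb-DXd/IMQ tumor 3 (52 and 36). Every member passed the filter, and the smallest count of any member in any tumor was 767, for Ttk in saline tumor 2.

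At an unadjusted p under 0.05, edgeR's quasi-likelihood test put 18 of 35 members higher and 0 lower, against 9.13% of all tested genes higher and 9.79% lower. limma-voom gave 18 members at this level with 0 past the thresholds, where 174 of 18511 genes passed. DESeq2, run without the low-count filter, gave 16 members with 2 past the thresholds, Bub1 and Ccnb2, where 810 of 31459 genes passed. The share of all genes at an unadjusted p under 0.05 is not given for limma-voom and DESeq2. A log2 fold change above 0 was found for 35 of 35 members and for 52.6% of all tested genes. The median log2 fold change was 0.30 over the members and 0.022 over all tested genes, and the members ranged from 0.036 for Kif11 to 0.63 for Bub1 and Ccnb2. In 11 of 35 members each mAb-DXd/IMQ tumor was above each saline tumor, as in 5.97% of all tested genes, and in 0 members was each below, as in 7.10% of all tested genes. An adjusted p under 0.10, which is not the threshold used, was reached by 4 members on the higher side (2.22% of all tested genes). These were Bub1, Cenpf, Spc25 and Ube2c. Each of these 4 genes had an adjusted p above 0.10 without saline tumor 2, saline tumor 4 or mAb-DXd/IMQ tumor 4 (edgeR's quasi-likelihood test). The members vary together from tumor to tumor, and no p-value is given for the set.

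**Figure D1:**
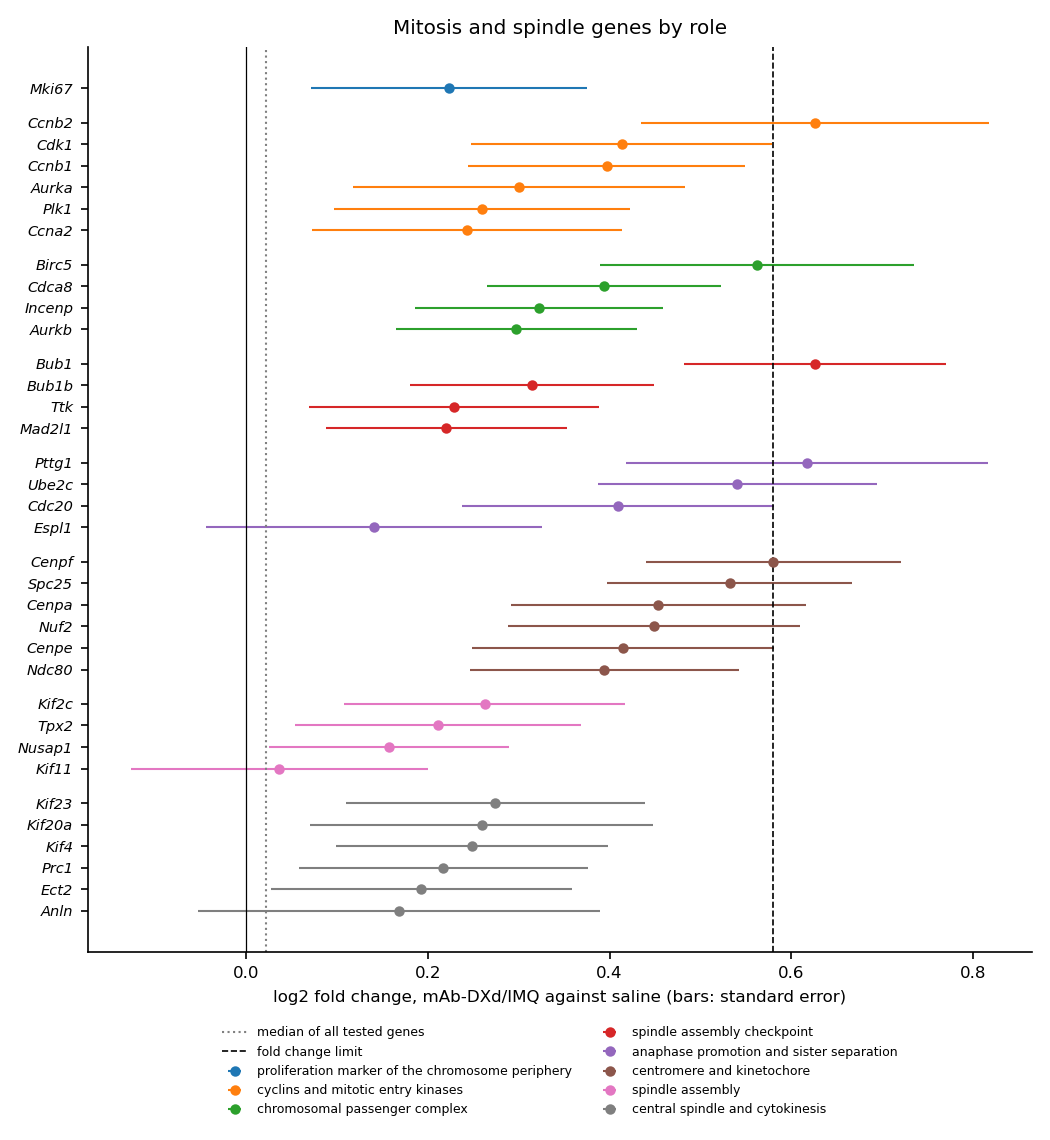
Log2 fold change of each of the 35 mitosis and spindle genes (mAb-DXd/IMQ against saline, n = 4 tumors each), grouped by role on the vertical axis, with standard errors as bars. All points lie above 0 and the dotted line marks the median of all tested genes at 0.022, while the dashed line marks the limit of 0.58.

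Across the 35 genes 1 saline tumor stood apart, while the order of the mAb-DXd/IMQ tumors varied between genes. Saline tumor 2 had the lowest level of the 8 tumors for 34 of 35 genes, whereas it was lowest for 14.4% of all tested genes. The exception was Espl1, which was lowest in mAb-DXd/IMQ tumor 1. At the other end, mAb-DXd/IMQ tumors 1, 3 and 4 were the highest of 8 for 24, 8 and 2 members. They were highest for 21.8%, 17.7% and 13.4% of all tested genes. Anln was highest in saline tumor 1, as were 14.2% of all tested genes. Within the mAb-DXd/IMQ group the lowest was tumor 1 for 4 members, tumor 2 for 16, tumor 3 for 7 and tumor 4 for 8. Of all tested genes, tumors 1 to 4 were the lowest of this group for 32.8%, 15.2%, 27.9% and 24.1%. Relative to the mean of each gene over 8 tumors, the median log2 level of the 35 genes was 0.017, -0.53, 0.098 and -0.26 in saline tumors 1 to 4 and 0.37, 0.055, 0.23 and 0.089 in mAb-DXd/IMQ tumors 1 to 4. Saline tumors 1 and 3 thus lay close to mAb-DXd/IMQ tumors 2 and 4, and saline tumors 2 and 4 lay below.

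**Figure D2:**
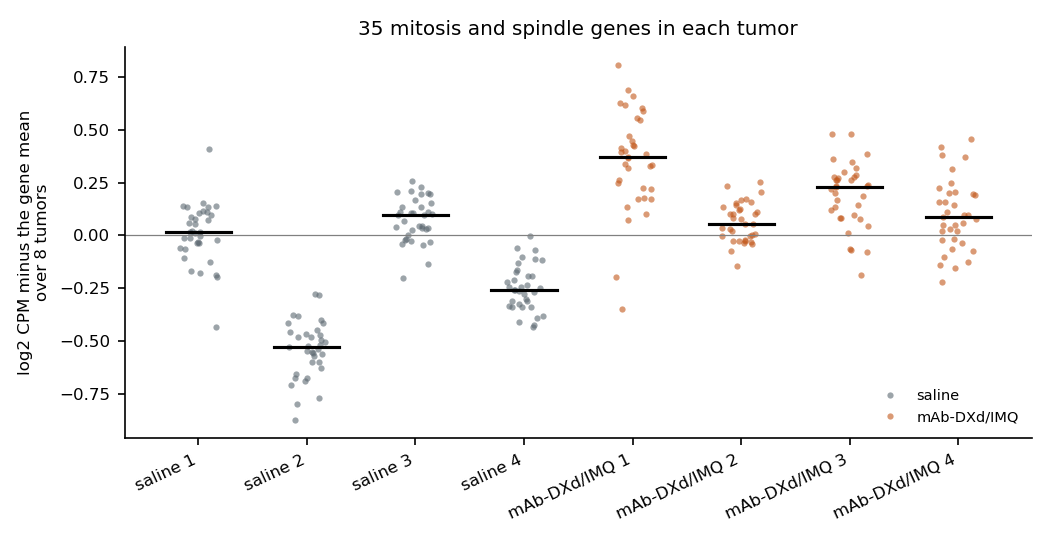
Log2 CPM of each of the 35 genes minus its mean over 8 tumors (vertical axis) in each tumor (horizontal axis), with the median as a black line. The median is -0.53 in saline tumor 2 and 0.37 in mAb-DXd/IMQ tumor 1, and saline tumor 3 at 0.10 is above mAb-DXd/IMQ tumors 2 and 4.

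CPM, counts scaled to library size with TMM factors, summed over the 35 genes were 2595, 1723, 2681 and 2122 in saline tumors 1 to 4 and 3138, 2629, 2884 and 2771 in mAb-DXd/IMQ tumors 1 to 4. The groups overlapped, since saline tumor 3 was above mAb-DXd/IMQ tumor 2. Without saline tumor 2 the median log2 fold change of the members was 0.20 instead of 0.30, 33 of 35 were above 0, and 9 instead of 18 had an unadjusted p under 0.05 by edgeR's quasi-likelihood test. The members not above 0 without it were Anln at -0.012 and Kif11 at -0.074. Without mAb-DXd/IMQ tumor 1 the median was 0.26 and 34 were above 0, with 11 at an unadjusted p under 0.05, and without saline tumor 4 this number was 10. The share of all tested genes at this level in these fits is not given, so the drops cannot be called particular to the members.

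Cell type markers also differed between these tumors. In bulk RNA, fewer cells of a type and less RNA per cell cannot be told apart. Carcinoma epithelium markers (10 genes, 9 tested, Krt18 the most abundant at 678 CPM) summed to 3026, 2132, 3039 and 2729 CPM in saline tumors 1 to 4 and 4361, 3526, 2614 and 2539 CPM in mAb-DXd/IMQ tumors 1 to 4. Saline tumor 2 was the lowest and mAb-DXd/IMQ tumor 1 the highest of the 8, as for the summed mitosis genes. Unlike the mitosis genes, which were above every saline tumor there, these markers in mAb-DXd/IMQ tumors 3 and 4 were below saline tumors 1, 3 and 4. None of the 9 tested genes passed, with log2 fold changes from 0.0083 for Krt8 (-0.17 without mAb-DXd/IMQ tumor 1) to 1.04 for Krt14, and Cldn3 was not tested. Their median was 0.30, near that of the mitosis genes, and 9 of 9 were above 0 (52.6% of all tested genes). At an unadjusted p under 0.05, 0 of 9 were higher, against 18 of 35 mitosis genes (9.13% of all tested genes). Higher without overlap were 0 of 9 markers and 11 of 35 mitosis genes (5.97%).

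Leukocyte markers (13 genes, 11 tested, Csf1r the most abundant at 232 CPM) were highest in saline tumor 2. Their sums were 610.3, 1109.6, 737 and 859 CPM in saline tumors and 575, 517, 741 and 493 CPM in mAb-DXd/IMQ tumors. Csf1r, the receptor that marks macrophages, was at 107, 501, 251 and 294 CPM in saline and 199, 156, 223 and 123 CPM in mAb-DXd/IMQ tumors, with overlapping groups and the highest value in saline tumor 2. The median log2 fold change of the tested markers was -0.72, 1 of 11 was above 0 (52.6% of all tested genes), and 5 were lower and 0 higher at an unadjusted p under 0.05 (9.79% and 9.13%). The T-cell coreceptor genes Cd4 and Cd8a fell, by 1.91 ± 0.25 (SE) and 1.22 ± 0.17 on the log2 scale (adjusted p = 0.0201 for each, edgeR's quasi-likelihood test), and each mAb-DXd/IMQ tumor was below each saline tumor. Their adjusted p was between 0.00417 and 0.0846 for Cd4 and between 0.0133 and 0.0846 for Cd8a when tumors were left out singly, under 0.05 in 5 of 8 fits for each gene, and above it without saline tumor 3 (0.0657), saline tumor 4 (0.0846) or mAb-DXd/IMQ tumor 4 (0.0694). Both genes passed in 9 of 12 other settings, and with a replicate block the adjusted p of edgeR's quasi-likelihood test was 0.0695 for Cd4 and 0.0815 for Cd8a, or 0.0715 and 0.0839 with length offsets added and 0.0738 and 0.0810 with length and GC offsets. The highest log2 fold change of the list was 0.20, for Itgax (-0.12 without mAb-DXd/IMQ tumor 3), and Ms4a1 and Ly6g were not tested.

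Other markers showed no gene past the thresholds, while DESeq2 put Fap and Emcn past them. Endothelial markers (7 of 7 tested, Pecam1 the most abundant at 66.2 CPM) summed to 86.0, 213, 151 and 159.6 CPM in saline and 209, 189, 202 and 177 CPM in mAb-DXd/IMQ tumors, with log2 fold changes from 0.14 for Vwf (-0.053 without mAb-DXd/IMQ tumor 4) to 0.87 for Emcn, a median of 0.39 and 7 of 7 above 0 (52.6% of all tested genes). Fibroblast markers (10 of 10 tested, Col1a1 the most abundant at 2534 CPM) summed to 2952, 3930.1, 6813 and 7239 CPM and 5708, 4405, 7803 and 2978 CPM, from -0.48 for Pdgfra to 0.90 for Fap. Skeletal muscle markers (8 of 8, led by Acta1 at 96.1 CPM) summed to 503, 62.2, 407 and 247 CPM and 368, 119, 253 and 306 CPM, lowest in saline tumor 2, with Ckm at -0.88 and Tnnt3 at 0.19. Ckm was at -0.47 without saline tumor 3 and -1.44 without mAb-DXd/IMQ tumor 1, and Tnnt3 at -0.13 without saline tumor 2. Adipocyte markers (5 of 6 tested, without Lep, led by Lpl at 6.91 CPM) summed to 20.2, 3.88, 12.2 and 17.0 CPM and 9.92, 14.1, 7.78 and 10.5 CPM, from -0.72 for Adipoq to -0.15 for Lpl, and Adipoq, Plin1 and Cidec had a count of 0 in saline tumor 2, which allows up to 0.0666 CPM. Adipoq was at -0.19 on the log2 scale without saline tumor 1, -1.13 without saline tumor 2 and -0.37 without mAb-DXd/IMQ tumor 3, and Lpl at 0.060 without saline tumor 1 and -0.38 without saline tumor 2. Over 19 alternatives Adipoq was between -1.13 and -0.060. Epidermal markers (4 of 7 tested, without Krt1, Krtdap and Dsg1a, led by Krt5 at 17.9 CPM) summed to 58.3, 11.2, 21.2 and 13.8 CPM and 11.4, 214, 9.26 and 15.1 CPM. Krt5 had the highest log2 fold change of that list at 1.98 and Sbsn the lowest at 0.49, and Krt5 was highest in mAb-DXd/IMQ tumor 2 at 112 CPM. Without that tumor the log2 fold change was -3.71 for Krt5 and -0.26 for Sbsn. The part of cell composition in the differences of the mitosis genes was not tested.

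**Figure D3:**
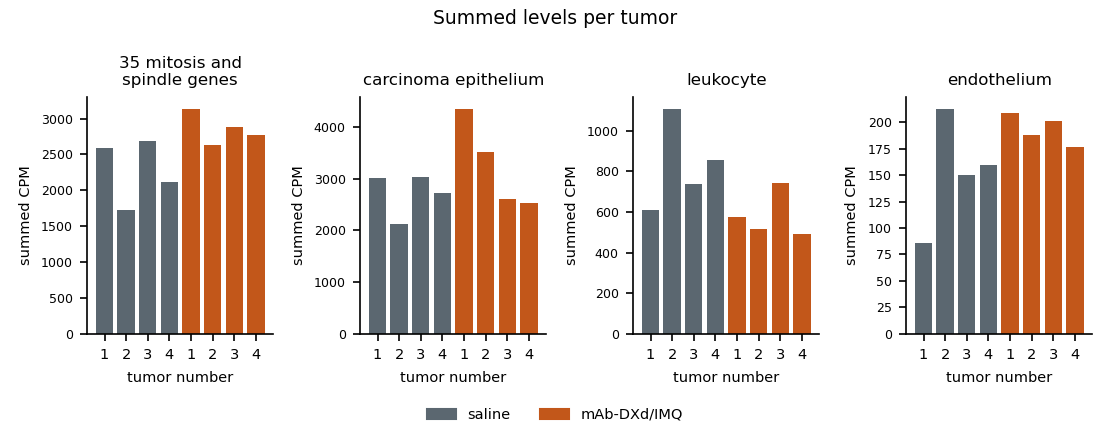
Summed CPM per tumor (bars, vertical axis) of the 35 mitosis genes and of carcinoma epithelium, leukocyte and endothelial markers, with tumor numbers within each group on the horizontal axis. Saline tumor 2 has the lowest sum for the mitosis genes and carcinoma epithelium and the highest for leukocytes and endothelium.

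Of the receptors whose absence defines triple-negative disease, Erbb2 RNA was read at 114, 74.3, 103 and 118 CPM in saline and 102, 117, 83.0 and 101 CPM in mAb-DXd/IMQ tumors, and Esr1 at 18.6, 17.9, 19.4 and 20.6 and 16.6, 17.2, 13.6 and 15.3 CPM. Pgr stayed between 0.161 and 0.808 CPM. None of the 3 passed the test, with log2 fold changes from -0.29 for Esr1 to 0.67 for Pgr, and Pgr was at 0.42 without saline tumor 4 and 1.30 without saline tumor 2. Over 20 alternatives Esr1 was between -0.33 and -0.13. RNA in bulk tissue includes host cells and does not measure receptor protein.

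Mki67 encodes the protein that coats chromosomes in mitosis. It was read at 259, 199, 292 and 242 CPM in saline tumors 1 to 4 and at 232, 279, 341 and 305 CPM in mAb-DXd/IMQ tumors 1 to 4, the order used for all values that follow. The groups overlapped, with mAb-DXd/IMQ tumor 1 below saline tumors 1, 3 and 4. The group means were 248 ± 38.6 and 289 ± 46.0 CPM (SD, n = 4) and the log2 fold change was 0.22 ± 0.15 (SE, adjusted p = 0.461, edgeR's quasi-likelihood test), or 0.13 without saline tumor 2 and 0.13 without mAb-DXd/IMQ tumor 3. For Mki67, mAb-DXd/IMQ tumor 1 was thus the lowest of its group, whereas it had the highest level of all tumors for 24 members.

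Among the 6 cyclins and entry kinases, 0 passed and the median log2 fold change was 0.35. Ccnb2, a B-type cyclin, showed the highest value of them and lay at chr9:70407692-70421547 on GRCm38. Its level was 57.7, 40.7, 67.0 and 50.4 CPM in saline and 115, 78.4, 69.3 and 70.3 CPM in mAb-DXd/IMQ tumors. The groups did not overlap, although saline tumor 3 and mAb-DXd/IMQ tumor 3 nearly met. Means were 54.0 ± 11.1 and 83.3 ± 21.6 CPM (SD, n = 4), and the log2 fold change of 0.63 ± 0.19 (SE) had an adjusted p of 0.117 by edgeR's quasi-likelihood test, so it did not pass. Without mAb-DXd/IMQ tumor 1 it was 0.43.

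Ccnb1, the other main partner of CDK1 at mitotic entry, was at 72.7, 54.4, 87.1 and 61.8 CPM in saline and 104, 88.0, 94.0 and 77.1 CPM in mAb-DXd/IMQ tumors. Saline tumor 3 was above mAb-DXd/IMQ tumor 4, and the log2 fold change was 0.40 ± 0.15 (SE, adjusted p = 0.196, edgeR's quasi-likelihood test). For Cdk1, the kinase itself, levels were 93.5, 76.5, 108 and 90.8 and 166, 113, 99.97 and 112 CPM. Here mAb-DXd/IMQ tumor 1 stood well above the other 7 tumors, saline tumor 3 exceeded mAb-DXd/IMQ tumor 3, and the log2 fold change was 0.41 ± 0.17 (adjusted p = 0.212, edgeR's quasi-likelihood test), or 0.23 without mAb-DXd/IMQ tumor 1.

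Plk1, a Polo kinase that matures centrosomes, was at 50.2, 31.4, 54.7 and 39.7 CPM in saline and 53.8, 53.0, 57.5 and 46.4 CPM in mAb-DXd/IMQ tumors. Saline tumors 1 and 3 fell inside the mAb-DXd/IMQ range, and the log2 fold change was 0.26 ± 0.16 (SE, adjusted p = 0.423, edgeR's quasi-likelihood test), or 0.13 without saline tumor 2. Aurka, the Aurora kinase of spindle poles, gave 43.0, 28.5, 41.5 and 34.4 and 61.7, 39.5, 43.7 and 36.5 CPM. Saline tumors 1 and 3 lay above mAb-DXd/IMQ tumors 2 and 4, and the log2 fold change was 0.30 ± 0.18 (adjusted p = 0.407, edgeR's quasi-likelihood test), or 0.11 without mAb-DXd/IMQ tumor 1 and 0.19 without saline tumor 2. Ccna2, cyclin A, had a log2 fold change of 0.24, or 0.12 without saline tumor 2 and 0.12 without mAb-DXd/IMQ tumor 1.

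The chromosomal passenger complex, which corrects wrong attachments at the centromere and later moves to the midzone, had 4 of 4 members higher at an unadjusted p under 0.05 (9.13% of all tested genes), 3 of 4 higher without overlap (5.97%) and 0 past the thresholds. Aurkb, its kinase, was at 52.0, 36.9, 55.2 and 43.1 CPM in saline and 60.2, 52.6, 57.9 and 59.4 CPM in mAb-DXd/IMQ tumors. Saline tumor 3 was above mAb-DXd/IMQ tumor 2, so the groups overlapped, and the log2 fold change was 0.30 ± 0.13 (SE, adjusted p = 0.257, edgeR's quasi-likelihood test), or 0.20 without saline tumor 2. The targeting subunits Birc5 (survivin), Cdca8 (borealin) and the scaffold Incenp did not overlap between groups. Their log2 fold changes were 0.56, 0.39 and 0.32, or 0.42, 0.30 and 0.21 without saline tumor 2.

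In the spindle assembly checkpoint, Bub1 showed the lowest adjusted p of all 35 genes. Bub1 is a kinase that marks centromeric chromatin and recruits checkpoint proteins, and the gene lay at chr2:127801122-127831865 on GRCm38. Its RNA was at 32.9, 23.3, 36.7 and 28.1 CPM in saline tumors and 51.7, 43.0, 48.7 and 43.6 CPM after mAb-DXd/IMQ. All 4 mAb-DXd/IMQ tumors were above all 4 saline tumors, and the means were 30.3 ± 5.83 and 46.7 ± 4.14 CPM (SD, n = 4). The log2 fold change was 0.63 ± 0.14 (SE) with an adjusted p of 0.0580 by edgeR's quasi-likelihood test, just outside the threshold. When tumors were left out singly, the adjusted p of Bub1 was between 0.0725 and 0.177, and Bub1 passed in 4 of 20 alternatives. The related pseudokinase gene Bub1b was at 0.31, the inhibitor of CDC20 Mad2l1 at 0.22 and the kinase gene Ttk at 0.23 on the log2 scale, all with overlapping groups. Leaving out saline tumor 2 gave 0.14 for Mad2l1 and 0.092 for Ttk, and leaving out mAb-DXd/IMQ tumor 1 gave 0.12 for Mad2l1.

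Anaphase starts when CDC20 activates the anaphase-promoting complex, UBE2C supplies ubiquitin, securin (Pttg1) is destroyed and separase (Espl1) cuts cohesin. Pttg1, at chr11:43420250-43426251, was at 38.9, 20.4, 36.5 and 27.8 CPM in saline and 60.4, 41.7, 43.1 and 44.5 CPM in mAb-DXd/IMQ tumors. The groups did not overlap, mAb-DXd/IMQ tumor 1 was far above the other 3 of its group, and saline tumor 2 had the lowest value. Means were 30.9 ± 8.46 and 47.4 ± 8.73 CPM (SD, n = 4), and the log2 fold change was 0.62 ± 0.20 (SE, adjusted p = 0.131, edgeR's quasi-likelihood test). It was 0.46 without saline tumor 2 and 0.48 without mAb-DXd/IMQ tumor 1.

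Espl1, the protease that securin holds in check, was at 49.2, 36.7, 51.8 and 35.8 CPM in saline and 35.1, 43.7, 62.5 and 49.9 CPM in mAb-DXd/IMQ tumors. The lowest and the highest level were both in the mAb-DXd/IMQ group, in tumors 1 and 3, and the log2 fold change was 0.14 ± 0.19 (SE, adjusted p = 0.729, edgeR's quasi-likelihood test), or -0.016 without mAb-DXd/IMQ tumor 3. Pttg1 and Espl1, an inhibitor and its target, were thus near opposite ends of the members' range, although the difference between them was not tested. Cdc20 was at 69.1, 47.7, 76.0 and 57.2 and 108, 73.7, 78.4 and 72.0 CPM. Saline tumor 3 was above mAb-DXd/IMQ tumors 2 and 4, and the log2 fold change was 0.41 ± 0.17 (adjusted p = 0.230, edgeR's quasi-likelihood test), or 0.26 without mAb-DXd/IMQ tumor 1. Ube2c had a log2 fold change of 0.54 with groups that did not overlap.

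Of the centromere and kinetochore genes, 6 of 6 were higher at an unadjusted p under 0.05 (9.13% of all tested genes) and 4 of 6 without overlap (5.97%), with log2 fold changes from 0.39 to 0.58. Cenpa, the histone H3 variant that marks the centromere, was at 166, 99.8, 159.6 and 126 CPM in saline and 171, 175, 191 and 218 CPM in mAb-DXd/IMQ tumors. The groups did not overlap, and mAb-DXd/IMQ tumors 3 and 4 were the highest. Means were 138 ± 30.8 and 189 ± 21.6 CPM (SD, n = 4) with a log2 fold change of 0.45 ± 0.16 (SE, adjusted p = 0.167, edgeR's quasi-likelihood test), or 0.32 without saline tumor 2.

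Cenpf, a large protein of the outer kinetochore, had group means of 69.2 ± 12.1 and 104 ± 11.8 CPM (SD, n = 4). Its log2 fold change of 0.58 ± 0.14 (SE) had an adjusted p of 0.0658 by edgeR's quasi-likelihood test, and without saline tumor 1 it was 0.68 with an adjusted p of 0.0499, past both thresholds. Over the 20 alternatives the adjusted p of Cenpf was between 0.0138 and 0.185. The motor gene Cenpe was at 0.42, and the subunits of the NDC80 complex, which grips microtubules, were at 0.39 for Ndc80, 0.45 for Nuf2 and 0.53 for Spc25. Cenpe was at 0.27 without saline tumor 2, and Ndc80 at 0.25 without mAb-DXd/IMQ tumor 1.

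**Figure D4:**
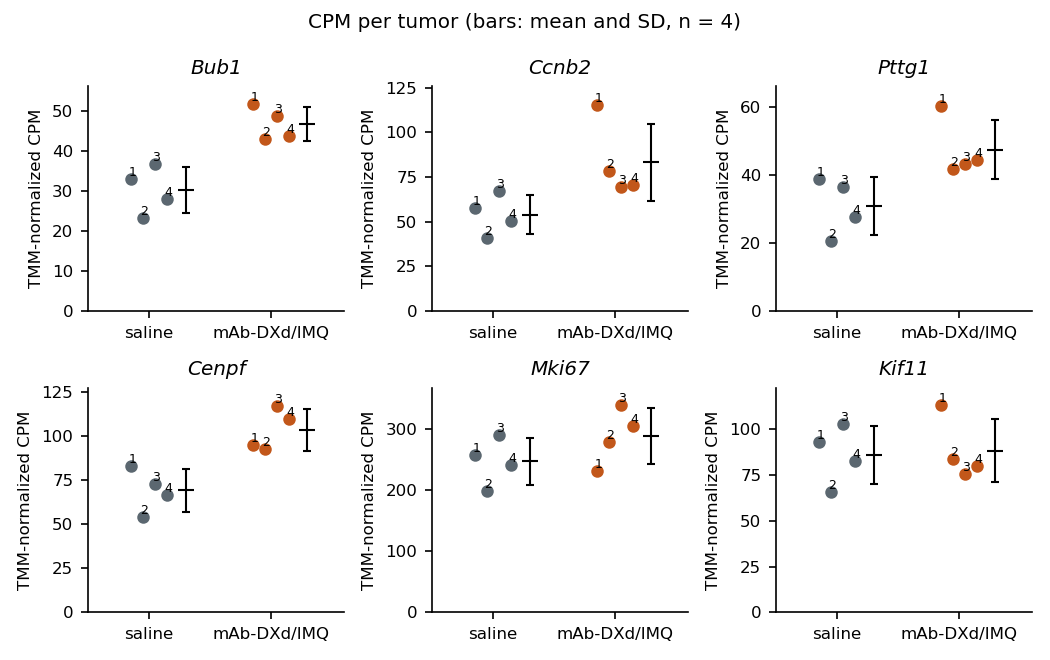
TMM-normalized CPM (vertical axes, from 0) of 6 genes in each tumor, with tumor numbers beside the points and the mean and SD of each group (n = 4) as a bar. Bub1, Ccnb2, Pttg1 and Cenpf do not overlap between groups, Mki67 and Kif11 do.

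The 4 spindle assembly genes had a median log2 fold change of 0.18, with 0 at an unadjusted p under 0.05 (9.13% of all tested genes higher, 9.79% lower). Kif11, the kinesin that pushes spindle poles apart, was at 93.0, 66.0, 103 and 82.5 CPM in saline and 114, 83.9, 75.7 and 80.2 CPM in mAb-DXd/IMQ tumors. The groups overlapped almost wholly, and mAb-DXd/IMQ tumors 2, 3 and 4 were below saline tumors 1 and 3. Its log2 fold change was 0.036 ± 0.16 (SE, adjusted p = 0.935, edgeR's quasi-likelihood test), and it was -0.11 without mAb-DXd/IMQ tumor 1 and -0.074 without saline tumor 2. Nusap1, a microtubule-bundling protein gene, was at 43.6, 37.6, 49.0 and 43.5 and 59.9, 47.3, 43.2 and 43.4 CPM. Saline tumor 3 was above 3 of 4 mAb-DXd/IMQ tumors, and the log2 fold change was 0.16 ± 0.13 (adjusted p = 0.560, edgeR's quasi-likelihood test), or 0.036 without mAb-DXd/IMQ tumor 1 and 0.093 without saline tumor 2. The microtubule depolymerase gene Kif2c was at 0.26 and Tpx2, which activates Aurora A, at 0.21. Leaving out saline tumor 2 gave 0.17 for Kif2c and 0.082 for Tpx2, and Tpx2 was at 0.13 without mAb-DXd/IMQ tumor 1 and 0.32 without saline tumor 3.

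The 6 genes of the central spindle and cytokinesis had 0 members at an unadjusted p under 0.05 and none without overlap. Of all tested genes, 9.13% were higher and 9.79% lower at that level, and 5.97% higher and 7.10% lower without overlap. Log2 fold changes were 0.27 for the kinesin gene Kif23, 0.26 for Kif20a, 0.25 for Kif4, 0.22 for the bundling factor Prc1, 0.19 for Ect2, which activates RhoA, and 0.17 for the scaffold Anln. Without saline tumor 2 these differences were 0.13 for Kif23, 0.15 for Kif20a, 0.14 for Kif4, 0.090 for Prc1, 0.072 for Ect2 and -0.012 for Anln. Ect2 was at 0.30 and Anln at 0.27 without saline tumor 3, and Anln was at 0.36 without saline tumor 1 and 0.089 without saline tumor 4. Without mAb-DXd/IMQ tumor 1, Kif20a was at 0.080, Ect2 at 0.095 and Anln at 0.094 on the log2 scale. Medians by role were 0.45 for centromere and kinetochore genes, 0.48 for anaphase genes, 0.36 for the passenger complex, 0.35 for cyclins and kinases, 0.27 for the checkpoint, 0.23 for the central spindle and 0.18 for spindle assembly. Differences between these roles were not tested.

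Levels can be compared between genes per length, as CPM per kilobase of the deposited gene length. In saline tumors the highest were Ccnb2 at 35.2 ± 7.27, Cdc20 at 33.5 ± 6.72 and Incenp at 29.6 ± 5.63 CPM per kilobase (SD, n = 4), within each other's spread. The lowest were Ndc80 at 4.11 ± 0.545, Kif4 at 4.48 ± 0.719 and Cenpf at 4.49 ± 0.786, also within each other's spread. Ccnb2 was above Ccnb1 in level, at 35.2 ± 7.27 against 16.4 ± 3.37 CPM per kilobase in saline and 54.4 ± 14.1 against 21.5 ± 2.69 in mAb-DXd/IMQ tumors. Mki67, first in CPM, ranked 5 of 35 per kilobase, with a length of 10061 bases.

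Another 114 mitotic genes, all tested, had 1 gene higher and 0 lower past the thresholds (0.546% and 0.519% of all tested genes). Their median log2 fold change was 0.18, with 79.8% above 0 (52.6% of all tested genes). At an unadjusted p under 0.05, 28 of them were higher and 3 lower, where all tested genes gave 9.13% and 9.79%. Sgo2a, a shugoshin that shields cohesin at the centromere, rose from 14.8, 10.4, 13.9 and 12.4 CPM in saline to 20.1, 21.2, 20.7 and 22.04 CPM in mAb-DXd/IMQ tumors. The mAb-DXd/IMQ values lay close together and above every saline tumor, and the log2 fold change was 0.71 ± 0.14 (SE, adjusted p = 0.0427, edgeR's quasi-likelihood test). When tumors were left out singly, Sgo2a passed in 1 of 8 fits, without saline tumor 1. In the others, its adjusted p was 0.0508 without mAb-DXd/IMQ tumor 1, 0.0651 without mAb-DXd/IMQ tumor 3, 0.0808 without saline tumor 2, 0.0867 without mAb-DXd/IMQ tumor 2, 0.0999 without saline tumor 3, 0.109 without mAb-DXd/IMQ tumor 4 and 0.143 without saline tumor 4. Under 12 other settings of the analysis Sgo2a passed in 9, and it did not with a replicate block (adjusted p = 0.115), or with that block and offsets for gene length (0.124) or for length and GC (0.119), all in edgeR's quasi-likelihood test.

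The 34 other checkpoint, kinetochore and centromere genes had a median of 0.27, with 9 higher and 1 lower without overlap (5.97% and 7.10% of all tested genes), and ranged from -0.28 for Cenpc1 to 0.95 for Cenpw. Cenpw, a small histone-fold kinetochore protein, was at 8.96, 5.94, 9.76 and 7.83 and 17.3, 13.3, 12.6 and 19.6 CPM. Its groups were well apart, with a log2 fold change of 0.95 ± 0.21 (SE, adjusted p = 0.0517, edgeR's quasi-likelihood test), and it did not pass. Cenpw passed in 5 of 20 alternatives, of which the lowest adjusted p was 0.000802, with DESeq2, and in 0 of 8 fits with a tumor left out. The 26 spindle, centrosome and cytokinesis genes had a median of 0.28, from -0.19 for Ckap5 (-0.11 without mAb-DXd/IMQ tumor 4) to 0.50 for Spag5. The 15 genes of mitotic entry and G2/M transcription had a median of 0.15, from -0.13 for Lin9 (-0.23 without saline tumor 2, -0.073 without saline tumor 3) to 0.53 for Bora. Over 20 alternatives Lin9 was between -0.23 and -0.011, and Ckap5 between -0.24 and -0.059. Lower medians were found for 22 cohesion and condensin genes, 0.070, where the cohesin loader Nipbl was lowest at -0.38, and for 17 genes of the anaphase-promoting complex, 0.026, from -0.24 for Anapc10 to 0.44 for Ube2s.

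**Figure D5:**
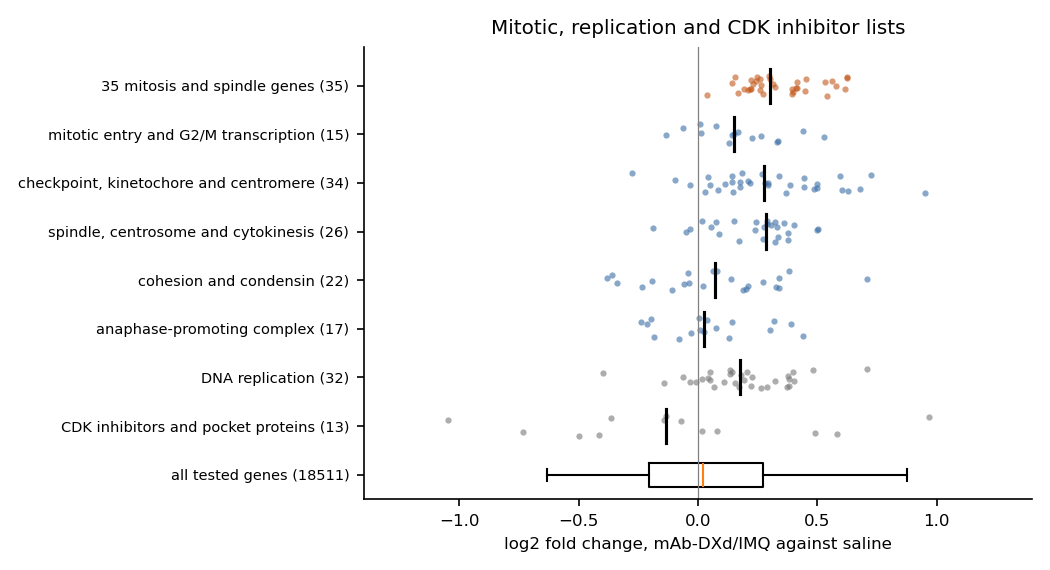
Log2 fold change (mAb-DXd/IMQ against saline, horizontal axis) of each gene in 8 lists, with medians as black lines and the number of genes in brackets, above a box of all 18511 tested genes (quartiles, whiskers at the 5th and 95th percentiles). The median is 0.30 for the 35 mitosis genes and -0.14 for CDK inhibitors and pocket proteins, a list that also holds Btg2.

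DNA replication genes, which act in S phase, were set beside the mitosis genes. Of 32 tested, 0 passed, 27 had a log2 fold change above 0 (52.6% of all tested genes) and the median was 0.18. At an unadjusted p under 0.05, 7 were higher (9.13% of all tested genes) and 1 lower (9.79%). The extremes were Mcm10, which helps load the replicative helicase's partners, at 0.71 ± 0.16 (SE, adjusted p = 0.0552, edgeR's quasi-likelihood test) and the polymerase alpha gene Pola1 at -0.40. Mcm10 passed in 6 of 20 alternatives, of which the lowest adjusted p was 0.00547, with DESeq2, and in 0 of 8 fits with a tumor left out.

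CDK inhibitors and pocket proteins, which restrain the cell cycle, were listed together with Btg2, which belongs to neither class. The list had a median of -0.14 over 13 tested genes, and 5 of 13 were above 0 (52.6% of all tested genes). At an unadjusted p under 0.05, 1 was higher (9.13% of all tested genes) and 5 were lower (9.79%), and 1 was higher (5.97%) and 3 were lower (7.10%) without overlap. Rb1, the retinoblastoma protein gene, was at 24.3, 37.1, 32.9 and 34.5 CPM in saline and 20.3, 21.8, 16.2 and 19.1 CPM in mAb-DXd/IMQ tumors. It fell by 0.73 ± 0.15 (SE) on the log2 scale (adjusted p = 0.0458, edgeR's quasi-likelihood test), with all mAb-DXd/IMQ tumors below all saline tumors. When tumors were left out singly, Rb1 passed in 1 of 8 fits, without saline tumor 1, and its adjusted p was otherwise 0.0608 without mAb-DXd/IMQ tumor 1, 0.0749 without mAb-DXd/IMQ tumor 2, 0.0771 without mAb-DXd/IMQ tumor 3, 0.0953 without saline tumor 2, 0.116 without saline tumor 3, 0.122 without mAb-DXd/IMQ tumor 4 and 0.155 without saline tumor 4. Rb1 passed in 6 of 12 other settings and did not pass with limma-voom (adjusted p = 0.0577). In edgeR's quasi-likelihood test its adjusted p was also above 0.05 with offsets for gene length (0.0671) or for length and GC (0.0711), with a replicate block (0.108) and with that block and either offset (0.136 and 0.142). The extremes of the list were Btg2 at -1.05 and Cdkn2a at 0.97, the latter below 1 CPM in every tumor. Without saline tumor 4 Btg2 was at -0.42, and without saline tumor 1 Cdkn2a was at 0.60.

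Several members share their locus with a gene on the opposite strand, and the sources do not say whether counting used strand. For 7 members such a neighbor had at least 10% of the member's counts: Exosc9 beside Ccna2, 9930104L06Rik beside Cdca8, Elovl1 beside Cdc20, Oip5 beside Nusap1, Pdzd11 beside Kif4, Cdc23 beside Kif20a and Rccd1 beside Prc1. Where strand is not used, reads of such a pair can be counted on either gene, and whether they were was not tested. The neighbors' log2 fold changes were -0.095, 0.036, 0.094, 0.44, -0.0052, 0.026 and 0.015, in this order. Processed copies took few reads, with 393 counts on Ccnb1-ps against 31302 on Ccnb1 and 238 on Ccnb2-ps against 26751 on Ccnb2 over the 8 tumors. Log2 fold changes were lower at greater gene length over all tested genes (Spearman rho = -0.212, across genes, which are not independent replicates). Over the 35 members rho was -0.345, and their lengths ran from 1531 to 15433 bases.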

How the data were processed

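RNA-seq of 8 tumors was analysed, 4 per group as the sample labels give them. The authors deposited raw read counts in a gene table without normalization, and the submitters' processing notes name HISAT2, HISAT and TopHat2 with the build mm39, without roles or versions. Coordinates in the deposited table equal those of GENCODE M21 on GRCm38 for 98.3% of 54409 shared genes, so GRCm38 is used here.

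Counts were filtered with filterByExpr (minimum count 10, minimum total 15), scaled by TMM (factors 0.939 to 1.07) and tested with glmQLFit and glmQLFTest of edgeR 4.0.16 in R 4.3.3, without covariates. Standard errors were derived from the test statistic and are approximate. DESeq2 1.42.0, limma 3.58.1 and Python 3.11.15 served for alternatives and figures. Log2 CPM used a prior count of 2. The steps were tested on simulated data. Libraries of a group were compared for duplicates and all pairs differed beyond sampling noise. Total counts did not separate the groups (two-sided exact permutation test, p = 0.171, smallest possible 0.0286). A floor of 3 counts was 0.0431 to 0.0867 CPM and covers counting error only.

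The members and lists were chosen with earlier results of these data known. All members are given with their log2 fold change, and values per tumor for preset genes and the 3 highest and 3 lowest members. Of each other list, genes past the thresholds and both extremes are named. Each tumor was treated as a separate mouse. The labels give no batch.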

Additional observations from a re-analysis of the deposited data

Results flagged for a closer look

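In groups of 4, 6 of 134 sets of values for the named genes held a tumor far from the other 3, where chance gives about 6.7. In the mAb-DXd/IMQ group, tumor 1 was far above the others for Ccna2 (158 CPM against 115 to 119, gap 0.909 of the range), Pttg1 (60.4 against 41.7 to 44.5, gap 0.851) and Ube2s (140.4 against 98.7 to 104, gap 0.864). In the same group, tumor 3 was far above for Itgax (128 against 64.2 to 66.8, gap 0.959) and tumor 2 for Krt5 (112 against 0.206 to 1.05, gap 0.992). Among saline tumors, tumor 1 was far above for Sbsn (5.60 against 2.03 to 2.62, gap 0.835).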

How the results depend on the processing

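The median log2 fold change of the mitosis genes was between 0.29 and 0.35 under 12 planned or later settings and between 0.20 and 0.38 with each tumor left out. Of 700 values of single members under alternatives, 688 kept their direction and side of the thresholds, 8 came to pass and 4 changed sign. Members past the thresholds on the higher side numbered 0 in the main comparison, 1 with upper-quartile factors, no low-count filter or at least 1 CPM in 4 tumors (Bub1), 1 with offsets for gene length or, chosen after seeing the data, for length and GC (Cenpf), 2 with DESeq2, and 0 to 1 with each tumor left out. The number above 0 was then 33 to 35 and the number without overlap 11 to 16. Smaller groups are more often without overlap by chance, and the share of all tested genes in these fits is not given. The 11 to 16 therefore cannot be set against the 5.97% of the main comparison.

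Over all genes, 101 higher and 96 lower became 167 and 191 with no filter and 448 and 362 with DESeq2, which was also run without the filter, so that tool and filter changed together. They became 74 and 46 with length offsets and 77 and 55 with length and GC offsets. With upper-quartile factors 66.5% of calls were higher, against 51.3%. Leaving out each tumor gave 9 to 90 higher and 1 to 118 lower genes, with fewer tumors in each fit.

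Replicate numbers do not pair the tumors, since saline and treated tumors grew in different mice, and tumors of the same number deviated with correlations of -0.17, -0.055, 0.079 and -0.067. A replicate block left 10 higher and 4 lower genes, 10 and 2 with length offsets and 10 and 3 with length and GC offsets, and 0 members.

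Signs changed for 10 named genes. With a tumor left out, Espl1 ranged from -0.016 to 0.26, Anln from -0.012 to 0.36, Kif11 from -0.11 to 0.13, Itgax from -0.12 to 0.29, Krt5 from -3.71 to 3.62, Krt8 from -0.17 to 0.13, Lpl from -0.38 to 0.060, Sbsn from -0.26 to 0.89, Tnnt3 from -0.13 to 0.41 and Vwf from -0.053 to 0.31. Krt8 was -0.029 with limma-voom, -0.062 with length offsets, -0.087 with length and GC offsets, -0.023 with the replicate block, and -0.093 and -0.12 with the block and either offset. In the block fits Krt5 was -1.07, -1.10 and -1.13, and Lpl 0.054 and 0.069 with offsets. The cause was not tested. Adding TTTAAA and CTTGAA raised the share of members' promoters with a CHR from 33.3% to 56.7%, against 36.5% of all genes.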
